A study of Mus musculus with 4 samples.

Results

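The integrin subunit genes Itgav, Itgb1, Itgb3, Itgb5, Itgb6 and Itgb8, which encode alpha-v and the 5 beta chains known to pair with it, were followed in mouse renal tubular cells given an siRNA against Itgb6. They were chosen by symbol, with earlier results of these data known, and are 6 of the 22063 genes listed in the deposited table. The cells were TKPTS (TKPT in the labels), an immortalised mouse line of proximal tubule origin, so that every library comes from 1 cell line. All 4 libraries came from cells kept at 1% O2 for 24 h and then returned to normal oxygen for 12 h. The 2 control libraries, replicates 2 and 3, carried a scrambled siRNA and are labelled WT (si-NC). The 2 others, replicates 1 and 3, were transfected with Itgb6 siRNA (si-Itgb6). The comparison asks which transcripts differ in injured tubular cells when Itgb6 is targeted. No library of normoxic cells or untransfected cells is among the 4.

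An integrin is a pair of one alpha and one beta chain that spans the plasma membrane, binds matrix outside the cell and connects to actin through adaptor proteins inside it. The alpha-v chain has no single partner, and the beta chain it pairs with decides much of which ligand the pair binds. The αvβ6 and αvβ8 pairs bind the latent form of TGF-β and release its activity, αvβ3 and αvβ5 are known for binding vitronectin and other ligands with an arginine-glycine-aspartate motif, and β1 is shared with many other alpha chains. In the kidney β6 is an epithelial subunit that is low in healthy tubules and raised in injured ones.

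In mouse build GRCm38 (GENCODE vM21 annotation, which may not be the one behind the files), Itgav (ENSMUSG00000027087) lies at chr2:83724397-83806916 on the plus strand. Itgb6 (ENSMUSG00000026971) is on the same chromosome, at chr2:60598292-60722643 on the minus strand. Itgb1 (ENSMUSG00000025809) lies at chr8:128685654-128733200, Itgb3 (ENSMUSG00000020689) at chr11:104608000-104670476 and Itgb5 (ENSMUSG00000022817) at chr16:33829665-33949338, all 3 on the plus strand. Itgb8 (ENSMUSG00000025321) lies at chr12:119158022-119238802 on the minus strand. Exons of Itgav overlap those of Gm13684 on the opposite strand, and as the libraries were not strand-specific, reads from this overlap cannot be told apart. The other 5 genes overlap no exon of another annotated gene. The annotation gives 9 transcripts to Itgav, 4 to Itgb1, 2 to Itgb3, 7 to Itgb5, 9 to Itgb6 and 3 to Itgb8.

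The promoters of the most abundant beta gene (Itgb1), of the siRNA's target (Itgb6, the upstream one of 2 start sites) and of the single gene that passed the test below (Itgb8) are shown as the 250 bases before the RefSeq start site, read 5′ to 3′ on the gene's strand (GRCm38.p6). These are chr8:128685404-128685653 on the plus strand, and chr2:60722604-60722853 and chr12:119238277-119238526 on the minus strand. The RefSeq and GENCODE start sites are the same for Itgb1 and differ for Itgb6 and Itgb8. By the GENCODE coordinates above, the Itgb8 window lies wholly inside the annotated gene, and the Itgb6 window overlaps the gene's 5′ end. Capitals mark matches to the motifs searched.
Itgb1: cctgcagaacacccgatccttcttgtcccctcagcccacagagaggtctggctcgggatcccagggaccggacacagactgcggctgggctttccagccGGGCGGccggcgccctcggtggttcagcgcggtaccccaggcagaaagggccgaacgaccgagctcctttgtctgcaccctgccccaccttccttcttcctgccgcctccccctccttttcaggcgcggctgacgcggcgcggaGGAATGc
Itgb6: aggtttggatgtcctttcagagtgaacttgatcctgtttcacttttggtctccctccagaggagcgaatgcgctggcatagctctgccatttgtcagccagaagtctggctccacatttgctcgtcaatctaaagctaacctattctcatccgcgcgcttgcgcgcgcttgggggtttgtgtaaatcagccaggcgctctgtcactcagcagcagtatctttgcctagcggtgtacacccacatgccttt
Itgb8: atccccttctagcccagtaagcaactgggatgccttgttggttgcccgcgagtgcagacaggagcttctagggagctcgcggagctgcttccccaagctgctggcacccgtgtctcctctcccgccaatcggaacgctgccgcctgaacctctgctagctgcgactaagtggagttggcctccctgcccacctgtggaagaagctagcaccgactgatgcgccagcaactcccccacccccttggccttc

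Base composition differed along the family. In these windows GC made up 68.0% in Itgb1, 65.2% in Itgb5, 64.4% in Itgav and 62.4% in Itgb8, against a median of 52.4% over 32851 RefSeq promoters of mouse genes. Itgb6 stood lower, at 52.0% for the upstream start site and 38.0% for the downstream one. The number of CpG dinucleotides was 21 in Itgb1, 18 in Itgav and in Itgb5 and 12 in Itgb8, against a median of 6. It was 11 at the upstream Itgb6 start site and 3 at the downstream one. In CpG number Itgb8 and the upstream Itgb6 site thus lay close together, both above the median. Short motifs of 6 kinds were searched on both strands. The Itgb1 window holds 1 GC box (GGGCGG, present in 32.7% of all promoters), at bases -151 to -146 from the start, and 1 TEAD motif (CATTCC, in 12.6%), at bases -7 to -2. The Itgb5 window holds 3 GC boxes, which begin at bases -199, -63 and -34. The windows of Itgav, Itgb6 (both start sites) and Itgb8 hold none of these letters, nor TATAAA (in 12.4% of promoters), TGANTCA for AP-1 (6.75%), ACGTG for the core bound by hypoxia-inducible factors (16.6%) or GTCTAGAC for SMAD proteins (0.167%), and the last 4 were also without a match in Itgb1 and Itgb5. None of the 5 matches overlaps another. Itgb3 has no entry in the promoter table.

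The libraries held 15435087 to 17220285 gene-assigned reads, and 15357 genes had a count in at least 1 library, of which 11727 were tested. An adjusted p under 0.05 by edgeR's quasi-likelihood test (Benjamini-Hochberg over all genes tested) was reached by 542 genes. Of these, 295 were lower and 247 higher in si-Itgb6. Most of these calls were lost once si-NC replicate 2 was dropped. Of 10 proximal tubule markers, Slc34a1, Slc5a2 and Slc22a6, the phosphate, glucose and organic anion transporters of this segment, had no read in any library, for which 3 reads, or 0.174 to 0.194 CPM (reads scaled to the library total), is the limit a count of 0 allows. Hnf4a had at most 1 read, whereas Pax8, a transcription factor of kidney epithelium, averaged 128 FPKM and Krt19, an epithelial keratin, 1547 FPKM. Genes of epithelium and nephron lineage were thus present and these transporters undetected. The summed FPKM of the 10 proximal tubule markers was 154 and 179 in si-NC and 167 and 192 in si-Itgb6, and that of the 9 epithelial and injured tubule markers was 3720 and 3737 against 3524 and 3533. Among the former 1 of 5 tested was higher, and among the latter 2 of 9 tested were lower and 1 was higher. The labels do not say whether the replicates were separate cultures, so p-values measure only the spread between these libraries, and in bulk RNA fewer cells of a kind cannot be told apart from less RNA per cell.

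The target of the siRNA came first. Itgb6, the epithelial beta subunit of the latent TGF-β receptor αvβ6, had 285 and 284 reads in si-NC replicates 2 and 3 and 279 and 260 reads in si-Itgb6 replicates 1 and 3. These are 17.5, 16.4, 18.0 and 15.8 CPM, with means of 17.0 ± 0.730 in si-NC and 16.9 ± 1.58 in si-Itgb6 (SD, n = 2 each). The highest and the lowest library both carried the Itgb6 siRNA, and the groups overlapped. The log2 fold change was -0.0051 ± 0.131 (SE) with an adjusted p of 0.991 by edgeR's quasi-likelihood test. The 95% confidence interval runs from 82.9% to 120% of the si-NC level, so that a fall of the transcript below 82.9% lies outside it. In FPKM the 4 values were 4.56, 4.19, 4.43 and 3.99. Because the count of the targeted gene does not separate the groups, the second group is called here the libraries labelled si-Itgb6. Protein was not measured in these libraries. The study reports that the siRNA was checked by qPCR and western blot, with less αvβ6 protein in hypoxic TKPTS cells. Whether the sequenced cultures were among those checked is not stated.

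On the per-length scale of FPKM (fragments per kilobase of transcript, scaled to the library total), the beta partners formed a fixed order. Itgb1 stood highest, followed by Itgb5, Itgb6, Itgb3 and Itgb8, in 4 of 4 libraries, and no 2 neighbours in the order overlapped in range. Itgb1 lay between 169 and 178 FPKM, Itgb5 between 9.03 and 10.4, Itgb6 between 3.99 and 4.56 and Itgb3 between 1.51 and 1.80. Itgb8 lay between 0.044 and 0.347 FPKM. The alpha chain Itgav, at 23.4 to 32.2 FPKM, fell between Itgb1 and Itgb5. Among the 15357 genes with a count, ranked by mean FPKM, Itgb1 was number 443, Itgav 2877, Itgb5 5666, Itgb6 7793, Itgb3 9614 and Itgb8 11972.

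**Figure D1:**
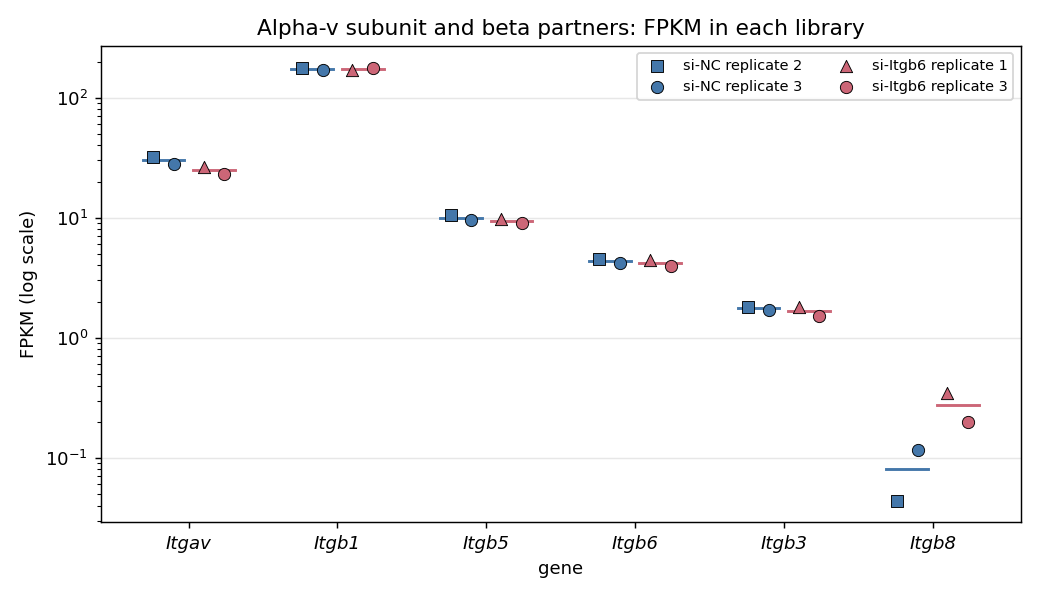
FPKM (log scale) of the alpha-v gene and its 5 beta partners in each of the 4 libraries; symbols are libraries, horizontal bars are group means (n = 2). Levels run from 178 FPKM for Itgb1 to 0.044 for Itgb8, and the 4 libraries keep the same order of beta partners.

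Itgb1, the common chain of the matrix receptors, supplied 91.6% ± 0.494 (SD, n = 4 libraries) of the summed beta FPKM. Itgb5 supplied 5.11% ± 0.283, Itgb6 2.26% ± 0.137, Itgb3 0.902% ± 0.0794 and Itgb8 0.0942% ± 0.0705. These SDs pool both groups. For Itgb8 they include the group difference, with means of 0.0427% in si-NC and 0.146% in the libraries labelled si-Itgb6. Because β1 also serves many other alpha chains, the same shares were taken over the 4 other partners. Itgb5 then made up 59.6% to 62.0% of the sum. Itgb6 made up 26.9% to 27.2%, the narrowest range of the 4. Itgb3 made up 10.3% to 11.1%. For Itgb8 the share was 0.261% and 0.751% in the si-NC libraries and 2.13% and 1.36% in those labelled si-Itgb6. The group means were 61.6% and 60.4% for Itgb5, 27.0% and 27.1% for Itgb6 and 10.9% and 10.7% for Itgb3.

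**Figure D2:**
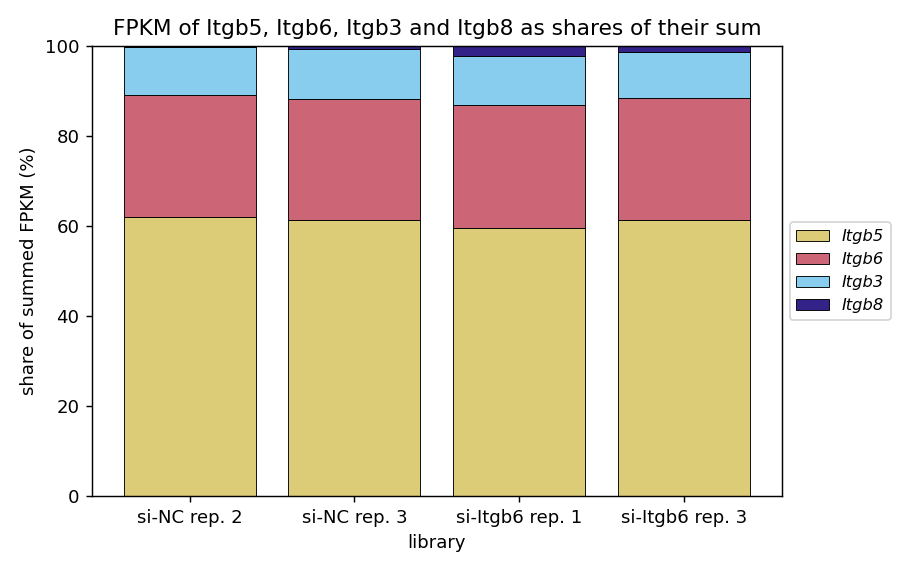
Stacked bars give the FPKM of Itgb5, Itgb6, Itgb3 and Itgb8 as percent of their sum in each library. Itgb6 stays between 26.9% and 27.2%, and Itgb8 is the thin top segment, up to 2.13%.

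Ratios between neighbours show how steady the upper part of the order was. Itgb1 exceeded Itgb5 by 17.1 to 19.6 times, Itgb5 exceeded Itgb6 by 2.19 to 2.29 times, and Itgb6 exceeded Itgb3 by 2.44 to 2.64 times. The step from Itgb3 to Itgb8 was the variable one, at 41.0 and 14.7 in si-NC against 5.20 and 7.56 in the libraries labelled si-Itgb6. Between the TGF-β-activating partners, Itgb6 exceeded Itgb8 by 104 and 35.8 times in si-NC and by 12.8 and 19.9 times in those labelled si-Itgb6. Itgav exceeded the sum of Itgb3, Itgb5, Itgb6 and Itgb8 by 1.91 and 1.80 times in si-NC and by 1.63 and 1.59 times in the other group.

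Of the 6 genes, 1 (Itgb8) passed an adjusted p of 0.05, where 4.62% of all genes tested did, and the same gene was the single one to pass the thresholds used in the study (unadjusted p under 0.05 and a fold over 1.2), which 9.57% of all genes passed, 4.37% as higher. In CPM, 1 of the 6 (Itgb8) was higher without overlap of the groups, as were 23.8% of all genes, and none was lower without overlap, as were 25.4%. The median log2 fold change of the 6 was -0.02, beside 0.00017 over all genes. The differences are written as si-Itgb6 against si-NC.

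Itgb8, the beta chain of the other TGF-β-activating pair, was the rarest of the 6. It had 6 and 17 reads in si-NC replicates 2 and 3 and 45 and 28 reads in si-Itgb6 replicates 1 and 3. The exact 95% Poisson intervals of these counts are 2.20 to 13.1, 9.90 to 27.2, 32.8 to 60.2 and 18.6 to 40.5 and cover counting error only. Both si-Itgb6 libraries lay above both si-NC libraries, while the intervals of si-NC replicate 3 and si-Itgb6 replicate 3 overlapped. The means in CPM were 0.676 ± 0.436 in si-NC and 2.30 ± 0.853 in si-Itgb6 (SD, n = 2 each). The log2 fold change was 1.74 ± 0.487 (SE), which is a 3.34-fold higher level (95% confidence interval 1.68 to 6.64), with an adjusted p of 0.0327 by edgeR's quasi-likelihood test.

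The call on Itgb8 rested on the full set of libraries. Its log2 fold change was 1.22 without si-NC replicate 2 (edgeR adjusted p = 0.523), 2.62 without si-NC replicate 3 (0.0802) and 1.31 with si-Itgb6 replicate 1 left out (0.249). With si-Itgb6 replicate 3 left out the call held, at 2.08 (0.0242), and with GC and length trends removed the estimate was 1.63 (0.0887). The library with the most Itgb8 reads, si-Itgb6 replicate 1, also held the most reads of 5 of 7 fibroblast markers and of 4 of 9 macrophage markers, most of them at few reads. Col1a1 had 22 reads there against 0, 1 and 2 in the others, Col3a1 had 14 against 0, 1 and 0, and Col1a2 and the macrophage gene Lyz2 had 11 each against 0 in each of the others. Pdgfrb, the most abundant fibroblast marker, was at its lowest there, with 35 reads against 52, 55 and 47, and Csf1r, the most abundant macrophage marker, had 418 reads against 449, 468 and 365. Summed over the 7 fibroblast markers, of which 1 passed the filter on low counts, the level was 3.21 and 3.54 CPM in si-NC and 5.83 and 3.23 CPM in si-Itgb6 replicates 1 and 3. Over the 9 macrophage markers, of which 2 passed the filter and Fcer1g was at 0 throughout, it was 36.3 and 37.4 CPM against 37.5 and 33.7 CPM. In FPKM the macrophage sum was 12.3 and 13.2 in si-NC and 18.4 and 12.6 in si-Itgb6 replicates 1 and 3. Csf1r was the largest part in si-NC, at 7.08 and 7.02 FPKM, and in si-Itgb6 replicate 1, at 11.8 FPKM. In si-Itgb6 replicate 3 Csf1r had 5.56 FPKM, below Cd14 at 6.94 FPKM. The 2 scales thus differed on whether si-Itgb6 replicate 1 stood apart. The part of the fibroblast and macrophage markers in the Itgb8 difference was not tested.

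**Figure D3:**
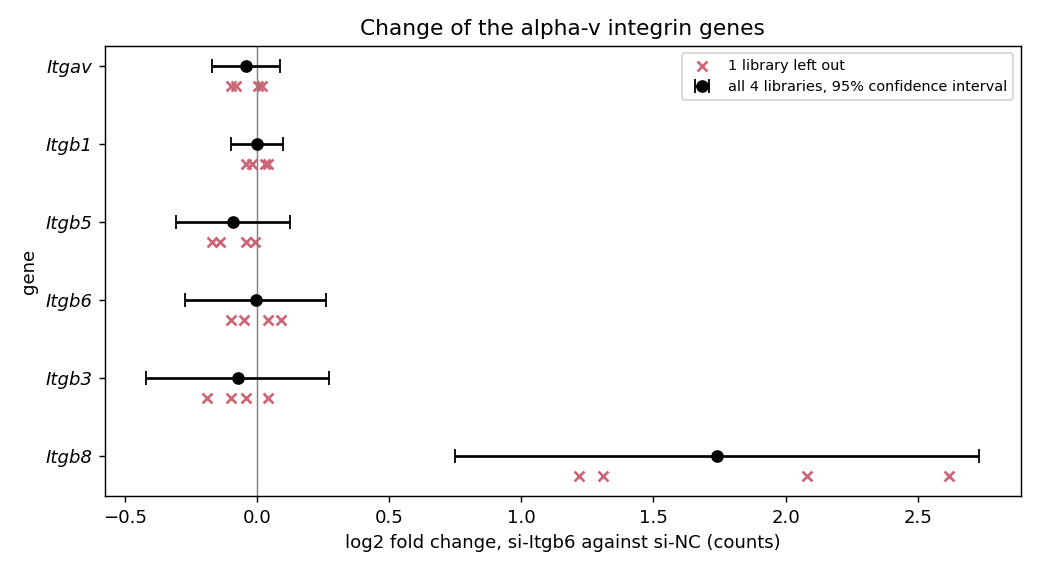
Log2 fold change from counts, si-Itgb6 against si-NC, with its 95% confidence interval (black, 4 libraries) and the estimate with 1 library left out (crosses). The interval of Itgb8, 0.75 to 2.73, lies above 0, and those of the 5 other genes include 0.

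The 5 other genes, Itgb6 included, had no adjusted p under 0.05, and their groups overlapped in CPM. Itgav, the alpha chain of all these pairs, had 2623 and 2539 reads in si-NC and 2382 and 2391 in si-Itgb6, or 161, 147, 154 and 145 CPM. Its log2 fold change was -0.04 ± 0.063 (SE; 95% confidence interval -0.17 to 0.087, edgeR adjusted p = 0.782). Itgb1 had 675, 649, 643 and 683 CPM, and its log2 fold change was 0.0010 ± 0.049 (interval -0.098 to 0.10, edgeR adjusted p = 0.996). The highest and the next highest library of Itgb1 belonged to different groups. These were the narrowest intervals of the 6 genes.

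For the vitronectin-binding partners the precision was lower. Itgb5 had 541 and 511 reads in si-NC and 472 and 469 in si-Itgb6, or 33.2, 29.6, 30.5 and 28.5 CPM. Its log2 fold change was -0.09 ± 0.106 (SE; interval -0.31 to 0.13, edgeR adjusted p = 0.712). Itgb3, known best from platelets, osteoclasts and vessels, had 169, 171, 161 and 146 reads, or 10.4, 9.90, 10.4 and 8.87 CPM. Its log2 fold change was -0.07 ± 0.17 (SE; interval -0.42 to 0.27, edgeR adjusted p = 0.867). In both genes si-Itgb6 replicate 3 was the lowest library, while replicate 1 lay between the si-NC libraries for Itgb5 and level with the higher of them for Itgb3. Endothelial markers, beside which Itgb3 is usually seen, summed to 3.52 and 4.30 CPM in si-NC and 2.79 and 4.25 CPM in si-Itgb6. The groups overlapped, and Emcn was at 0 reads throughout. Most of the reads in each sum came from 1 marker, the only 1 of the 6 that passed the filter on low counts.

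Itgav differed between its 2 deposited scales. In FPKM it stood at 32.2 and 28.0 in si-NC and at 26.6 and 23.4 in the libraries labelled si-Itgb6, so that the groups did not overlap, as was the case for 28.9% of 8825 well-covered genes with a lower FPKM in both si-Itgb6 libraries. The ratio of the group means was 0.830, a log2 difference of -0.27, against -0.04 in the count fit. A model on log2(FPKM + 1) with limma, added after the values were seen, gave a log2 difference of -0.26 with an unadjusted p of 0.0263 and an adjusted p of 0.296. The quotient of count, library total and FPKM is the transcript length behind the FPKM. For Itgav this length was 5020 and 5269 bases in si-NC and 5796 and 6131 bases in the other libraries, while the longest annotated transcripts have 7054 and 6788 bases.

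For the other members the length moved less. It was 5783 to 5785 bases for Itgb3, where the longest transcript has 5784, and 8386 to 8438 bases for Itgb8, where it has 8403. Itgb1 ranged from 3804 to 3815 bases (longest transcript 3815), Itgb5 from 3109 to 3197 (3282) and Itgb6 from 3858 to 4078 (4806). A length more than 1% longer in both si-Itgb6 libraries than in both si-NC libraries was found in 6.95% of the 8825 genes, and 155 of them (1.76%) had a log2 length ratio at least as large as the 0.21 of Itgav. What sets the length used for Itgav was not tested.

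**Figure D4:**
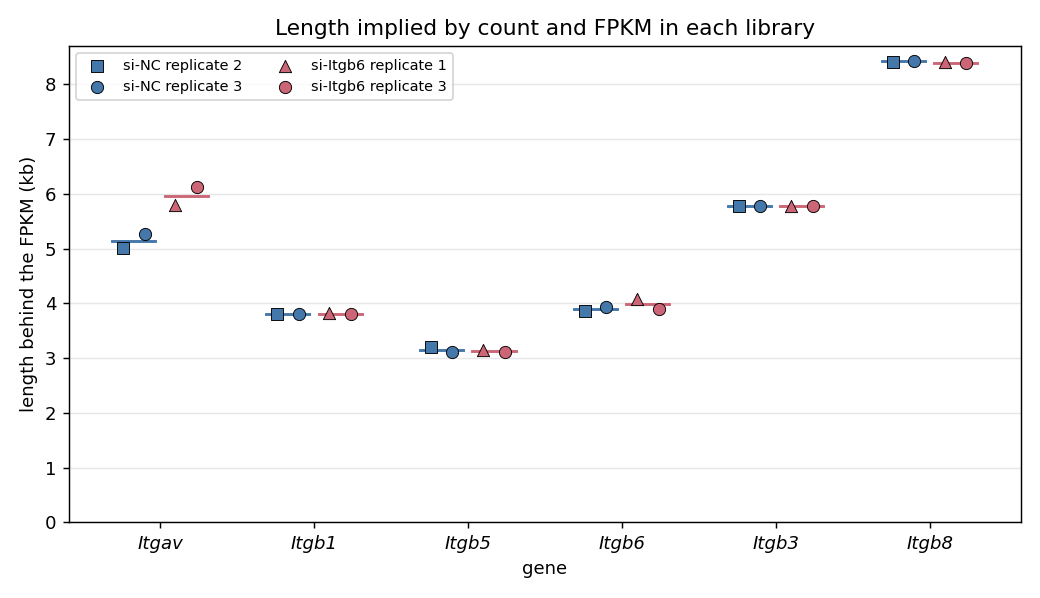
Transcript length in kb that links count and FPKM for each gene and library; symbols are libraries and horizontal bars group means (n = 2). Itgav rises from 5020 and 5269 bases in si-NC to 5796 and 6131 bases in si-Itgb6, and Itgb3, Itgb1 and Itgb8 are level.

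The 5 genes named below lay nearest to Itgb8 in their profile of log2 CPM over the 4 libraries, each centred on its own mean. These were Kcnj2, an inward-rectifier potassium channel gene (Euclidean distance 0.359), Cntf, a neurotrophic cytokine gene (0.577), Spi1, a myeloid transcription factor gene (0.581), Ccdc141 (0.595) and Flrt2, which encodes a membrane protein with leucine-rich repeats (0.620). Kcnj2 had 5, 13, 33 and 29 reads in si-NC replicates 2 and 3 and si-Itgb6 replicates 1 and 3, and Flrt2 had 20, 49, 74 and 73. All 5 were lowest in si-NC replicate 2, as Itgb8 was. Of the 5, Kcnj2 (edgeR adjusted p = 0.0313) and Flrt2 (0.028) passed the test, where 2.11% of all genes tested passed as higher. The 5 were picked for their likeness to Itgb8 over the same 4 libraries. The shared lowest library and the higher level in si-Itgb6 follow from that choice, so the likeness and the calls are a description.

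Of 99 genes on 7 lists of integrin biology, 75 were tested and 9 passed, 8 lower (2.52% of all genes tested were lower) and 1 higher (2.11%). Among the alpha partners of β1, 6 of 11 were tested and 1 was lower. This was Itga3, the laminin receptor chain and with a mean of 275 FPKM the highest of its list, at a log2 fold change of -0.20 (edgeR adjusted p = 0.00735), short of a fold of 1.2. Itga8 had no read in any library, and the median of the 6 was -0.12. Among the other integrin subunits, 4 of 9 were tested and none passed. Itgb4, the hemidesmosome chain, was the most abundant of these at 24.2 FPKM, Itgad had no read, and the median was 0.24.

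Among extracellular ligands of alpha-v integrins, 9 of 17 were tested and 1 was lower. Ccn1, a secreted matrix protein, had a log2 fold change of -0.28 (edgeR adjusted p = 0.00453). Spp1, the gene of osteopontin, was the most abundant ligand at 470 FPKM and differed by -0.01 log2 units, Ibsp had no read, and the median of the list was -0.07. Of the genes for latent TGF-β binding proteins and TGF-β receptors, 7 of 9 were tested and 1 was lower. Ltbp4, which holds latent TGF-β in the matrix, had 85 and 79 reads in si-NC and 34 and 43 in si-Itgb6, a log2 fold change of -1.02 (edgeR adjusted p = 0.0278). Tgfbr2, the type 2 receptor gene, was the most abundant at 27.3 FPKM, and the median was -0.07. Of 12 TGF-β response genes 11 were tested and none passed, and the median was -0.01.

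Inside the cell, 28 of 30 genes of integrin activators and adhesion adaptors were tested, 4 of which were lower and 1 higher. Tln1, the gene of talin that binds beta tails, fell by 0.41 on the log2 scale (edgeR adjusted p = 0.000264). The kinase gene Src fell by 0.34 (0.00557) and Flna, the gene of the actin crosslinker filamin A, fell by 0.23 (0.00319). Actn4, an alpha-actinin gene and at 167 FPKM the most abundant of the list, fell by 0.17 (0.0266). Crkl, an adaptor gene downstream of adhesion, rose by 0.33 log2 units (edgeR adjusted p = 0.0103). The median of the list was -0.07. Of the 13 integrin trafficking genes 12 were tested, and Arf6, a small GTPase gene of membrane recycling, fell by 0.29 on the log2 scale (edgeR adjusted p = 0.00481), whereas Rab11a, at 245 FPKM the most abundant, differed by 0.05, Snx31 had no read, and the median was 0.02.

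Of these 9 genes none was called with si-NC replicate 2 left out, 3 with si-NC replicate 3 left out, and 3 (Tln1, Ccn1 and Crkl) after GC and length trends were removed. Ltbp4 lost its call whichever library was left out, and Crkl also lost it without si-Itgb6 replicate 1.

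**Figure D5:**
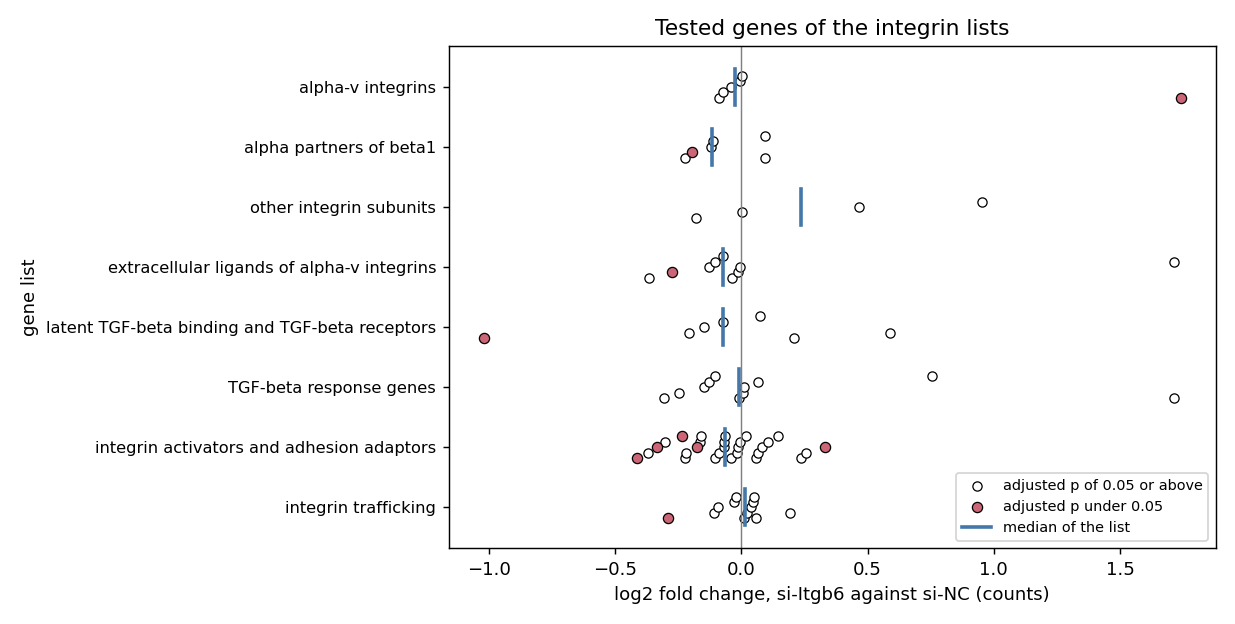
Log2 fold change, si-Itgb6 against si-NC, of every tested gene on the alpha-v list and the 7 other integrin lists; filled points have an edgeR adjusted p under 0.05 and the blue line is the list's median. The filled points are Itgb8 on the alpha-v list, at 1.74, and 9 genes on the other lists, 8 of them left of 0.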

How the data were processed

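Poly(A)-selected RNA of TKPTS cells was sequenced as paired reads on non-strand-specific libraries. The authors deposited a gene table with estimated counts and FPKM of 4 libraries, the same values per library, and pathway annotation that was not used here. The aligner, counter, genome build and annotation are not given in the sources used here. Per the methods, the set of samples was settled after clustering. Between 1447 and 1500 genes per library had counts that were not whole, and counts were rounded; those of the 6 genes were whole.

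Counts of 15435087 to 17220285 reads per library were fitted with edgeR 4.0.16 (R 4.3.3, TMM factors, filterByExpr with minimum counts of 10 in a library and 15 in all, quasi-likelihood test), and p-values were adjusted by the Benjamini-Hochberg method over 11727 genes. The common coefficient of variation was 0.0551. The fit was tested on simulated data before use. With 2 libraries per group, an exact two-sided permutation test of a single value cannot go below p = 0.333 and was not used. Intervals are 95%. FPKM values deposited by the authors served for levels, shares and the implied length (genes with at least 100 counts and 1 FPKM in every library), and log2(FPKM + 1) with a mean of at least 0.1 FPKM was fitted with limma 3.58.1. Alternatives were DESeq2 1.42.0, edgeR's exact and likelihood ratio tests, other scaling, filters, removal of GC and length trends, and leaving out each library.

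The genes named are the 6 members, from each list up to 3 lower and 3 higher genes of smallest p among those passing and the one of highest mean FPKM, the 5 nearest to Itgb8, and from marker lists those at 0 reads and the highest. Hnf4a, Col1a1, Col1a2, Col3a1, Lyz2 and Cd14 were chosen after their values were seen. A gene that this rule would name is not reported here. The members and lists were chosen with earlier results of these data known. Promoter sequences and motif shares come from RefSeq (GRCm38.p6).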

Additional observations from a re-analysis of the deposited data

How the results depend on the processing

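No paired analysis was possible because the 2 groups share only replicate number 3. For the 5 genes that did not pass, no alternative made a call, and log2 fold changes near 0 changed sign. Left-out libraries gave -0.10 to 0.02 for Itgav (0.02 without si-NC replicate 2, 0.0027 on dropping si-Itgb6 replicate 3), -0.04 to 0.04 for Itgb1 (-0.02 without si-NC replicate 3, -0.04 on dropping si-Itgb6 replicate 3), -0.19 to 0.04 for Itgb3 (0.04 without si-Itgb6 replicate 3), and -0.10 to 0.09 for Itgb6 (0.04 without si-NC replicate 2, 0.09 on dropping si-Itgb6 replicate 3). Itgb1 was -0.01 with library sizes alone, -0.03 with GC and length trends removed and -0.01 by limma on log2(FPKM + 1), and Itgb5 was 0.02 with those trends removed. Itgb8 ranged from 1.22 to 2.62 over the left-out libraries, 1.63 with trends removed (adjusted p = 0.0887) and 0.24 by limma on log2(FPKM + 1) (adjusted p = 0.453), where a pseudocount of 1 exceeds its level by construction. DESeq2 gave it 1.76 with an unadjusted p of 0.00753 and no adjusted p. The number of members called went from 1 to 0 with trends removed, by limma, with at least 10 counts in every library (Itgb8 was then not tested), and ranged from 0 to 1 over left-out libraries. With edgeR's 2 other tests, no filter, and scaling by RLE or library size alone, the adjusted p of Itgb8 ran from 0.00445 to 0.0499. List genes called went from 9 to 3 with trends removed and 0 by limma, and ranged from 0 to 12 over left-out libraries. All genes called ranged from 13 to 781 over left-out libraries, with 302 by DESeq2, 219 with trends removed and 0 by limma, against 542, and where no value above shows the cause it was not tested. The share of Itgb1 was 92.2% and that of Itgb6 1.87% with counts over the longest transcript. From counts without length Itgb5 had 4.22%, Itgb3 1.37% and Itgb8 0.208%.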
